A study of Mus musculus with 7 samples.

Results

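The step from early to middle light phase was the difference in liver mRNA between the array at Zeitgeber time (ZT) 06 and the mean of the arrays at ZT02 and ZT26, in log2. ZT0 is lights on and ZT12 lights off, so that ZT26 repeats ZT02 a day later. A probe set was counted as risen or fallen where ZT06 differed from that mean by at least 1.5-fold and by more than ZT26 differed from ZT02. This is a rule of size and not a test, and "rose" and "fell" are used only for probe sets past it. Of 35556 probe sets, 12076 had exactly 1 gene symbol and averaged more than 85 units over all 7 arrays of the series. Of these, 115 probe sets for 112 of 10966 genes passed the rule. A unit is the deposited log2 value turned back to the natural scale, which is an array signal and not a number of molecules. Where 3 levels of a gene follow each other without their times, they are those at ZT02, ZT26 and ZT06, and a gene that rose or fell from 2 levels did so from those at ZT02 and ZT26, the base arrays.

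The series measured liver RNA of C57/BL6 male mice every 4 h over 24 h, on 1 Affymetrix Mouse Gene 1.0 ST array at each of 7 times from ZT02 to ZT26. All mice were kept in 12 h of light and 12 h of dark with food and water at will for 2 weeks and then had food only between ZT12 and ZT24 for 7 days, so that no group was fed in the light in these 7 days. Their age is 9 to 11 weeks in the labels and 12 to 14 weeks at sacrifice in the study's methods. Each array held a pool of RNA from 5 perfused livers, 500 ng from each. The pools give no spread between mice and ZT06 has no second array, so ZT26 against ZT02 was the only measure of error. Clock time, hours in the light, hours without food and the ZT06 pool itself cannot be told apart as sources of a step. The samples are labelled liver, and all 8 hepatocyte markers were above 85 units, with a summed level between 106561 and 112336 units over the 7 arrays.

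The liver clock is a loop of transcription factors. BMAL1 (encoded by Arntl) and CLOCK activate genes through E-boxes, and among their targets are the PER, CRY and REV-ERB repressors, of which the REV-ERB proteins repress Arntl itself. The PAR-bZIP factors DBP, TEF and HLF carry the rhythm on to liver enzymes. Feeding adds its own daily signals: in night-fed mice the hours after lights on are the change from the use of food to the use of stored fuel.

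Between ZT02 or ZT26 and ZT06, 47 probe sets of 46 genes rose (0.389% of those tested) and 68 probe sets of 66 genes fell (0.563%). With 1 probe set a gene these are 0.419% and 0.602% of 10966 genes, the shares to set beside every count of list members below. The largest rise was that of Dbp, and 9 outputs and repressors of the clock rose. The falls included Arntl, Cry1 and Nfil3 together with single metabolic and chaperone genes and some antigen presentation genes. For scale, ZT26 was at least 1.5-fold above ZT02 in 43 probe sets (0.356%) and below it in 37 (0.306%), although the clock time was the same. The median size of the step over all tested probe sets was 0.079 log2 and that of the ZT26 to ZT02 difference was 0.090. These measures are unlike, since the step is taken from the mean of ZT02 and ZT26 and the other between single arrays. With equal noise on every array the step would be the smaller, so neither the sizes nor the counts for scale compare directly. Of 127 probe sets with a step of at least 1.5-fold, 12 did not differ by more than the ZT26 to ZT02 difference and are not counted. The members nearest to the fold limit were Nr3c2 at 0.587 inside and Usp2 at 0.583 outside for the rise, and Clec4a3 at -0.591 inside and Fcer1g at -0.583 outside for the fall.

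**Figure D1:**
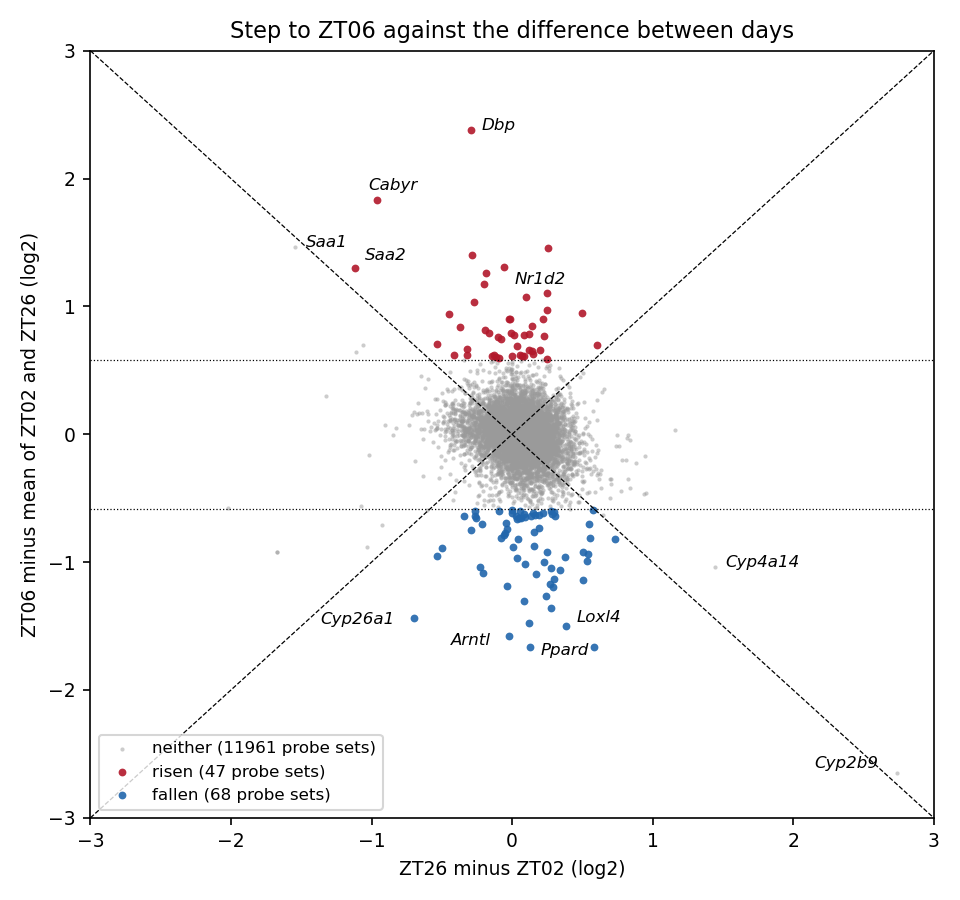
Each point is a tested probe set, with the difference between ZT26 and ZT02 in log2 on the horizontal axis and the step to ZT06 in log2 on the vertical axis. Dotted lines mark 1.5-fold and dashed lines mark a step as large as the difference between days. The 47 risen and 68 fallen probe sets lie above and below the dotted lines and between the dashed ones, whereas Saa1, Cyp4a14 and Cyp2b9 lie outside.

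In the limma test of ZT06 against both other arrays, with 1 residual degree of freedom, 0 probe sets were higher and 0 lower at a Benjamini-Hochberg adjusted p under 0.05. The smallest adjusted p was 0.579, and 554 probe sets were higher and 437 lower at an unadjusted p under 0.05. With each array centred on its median, limma called 49 higher (0.406%) and 67 lower (0.555%), among them 41 of the 47 risen and 61 of the 68 fallen probe sets. The 6 risen ones that missed it were those of Saa2, Btbd19, Mt2, Hhex, Dio1 and Cyp7b1. In 679 probe sets ZT02 and ZT26 had the same value to the last digit, and with the variance prior of limma fitted without these, an alternative chosen after seeing the data, it called 0 in either direction. The p-values therefore depend on how the spread was estimated, and the values below are given as sizes. Limma read the same arrays as the rule, so the overlap of its calls with the rule is no independent support. By the fold limit alone, without the margin over the difference between days, 137 probe sets were lower at ZT06 than at ZT26. Of these 63 are among the 68, and 75 probe sets were lower than at ZT02.

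In the list of outputs and repressors driven by BMAL1 and CLOCK, 9 of 15 measured genes rose and 0 fell. Of all tested genes 0.419% rose. The median step of the list was 0.90 log2, where that over all tested genes was 0.0087. This list was written with earlier results of these data known. Cry1, a CRY repressor, fell and stands in the other clock list, so these counts depend on where genes were placed. Dbp, which activates genes of drug and lipid metabolism, made the largest step of all risen genes. It was at 136 units at ZT02, 112 at ZT26 and 641 at ZT06, a 5.20-fold rise, and went on to 2161 at ZT10. Tef, of the same family, went from 200.2 and 234 units to 403, and to 1104 at ZT10. The third member, Hlf, did not pass: its level at ZT06, 411 units, was close to the 379 units at ZT26 and above the 285 units at ZT02.

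Both REV-ERB repressors, which hold down Arntl and other genes with a REV-ERB element, rose. Nr1d1, which encodes REV-ERB alpha, was at 1472 units at ZT02, 1282 at ZT26 and 3098 at ZT06, its highest value on any of the 7 arrays, and was back at 751 at ZT14. Nr1d2, which encodes REV-ERB beta, was at 447 and 430.0 units on the base arrays and 1087 at ZT06, but was highest at ZT10 with 1855. Both repressors were thus more than 2-fold above both early arrays at ZT06, and Nr1d1 was lower again at ZT10.

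The Period genes, which encode repressors of BMAL1 and CLOCK, did not all pass the rule. Per3 rose from 75.7 and 66.4 units to 169.9, a 2.39-fold step. Per1 rose from 113 and 82.8 units to 185, with a step of 0.94 log2 beside a difference of -0.45 between the days. Per2 did not pass, with 135, 156 and 181 units at ZT02, ZT26 and ZT06, and reached its highest value only at ZT14, 1035 units. The order Per3, Per1, Per2 in the size of the step is a description, since no spread between replicates was measured at ZT06.

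Of the other repressors, Ciart, whose product binds BMAL1, rose from 34.2 and 40.8 units to 103, and reached 876 at ZT10. Both base values lie under the background of 43 units, so the size of this rise rests on dim signals. With that background subtracted its step was 2.58 log2 in place of 1.46, and the step of Per3 2.20 in place of 1.26. The second Ciart probe set had a step of only 0.22 log2, so the size also depends on the probes. Bhlhe40, which encodes the E-box repressor DEC1, rose from 348 and 344 units to 648. Cry2 went from 314 and 309 to 391 units and did not pass. Rgs16, a regulator of G protein signalling, rose from 272 and 224 units to 652 and to 2656 at ZT10.

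The remaining genes of this list did not pass or were not tested. Usp2, a ubiquitin protease, was just under the limit with 101, 117 and 163 units and stood at 1686 at ZT10. Wee1, a kinase that holds back entry into mitosis, was at 143 units at ZT06, between its values of 130.2 at ZT02 and 153 at ZT26, and at 888 at ZT10. Tspan4, a tetraspanin, had a step of -0.11 log2, the only negative one of the list, and was highest at ZT14 with 3230.1 units. Bhlhe41 was under the expression minimum with a mean of 47.0 units and was not tested.

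**Figure D2:**
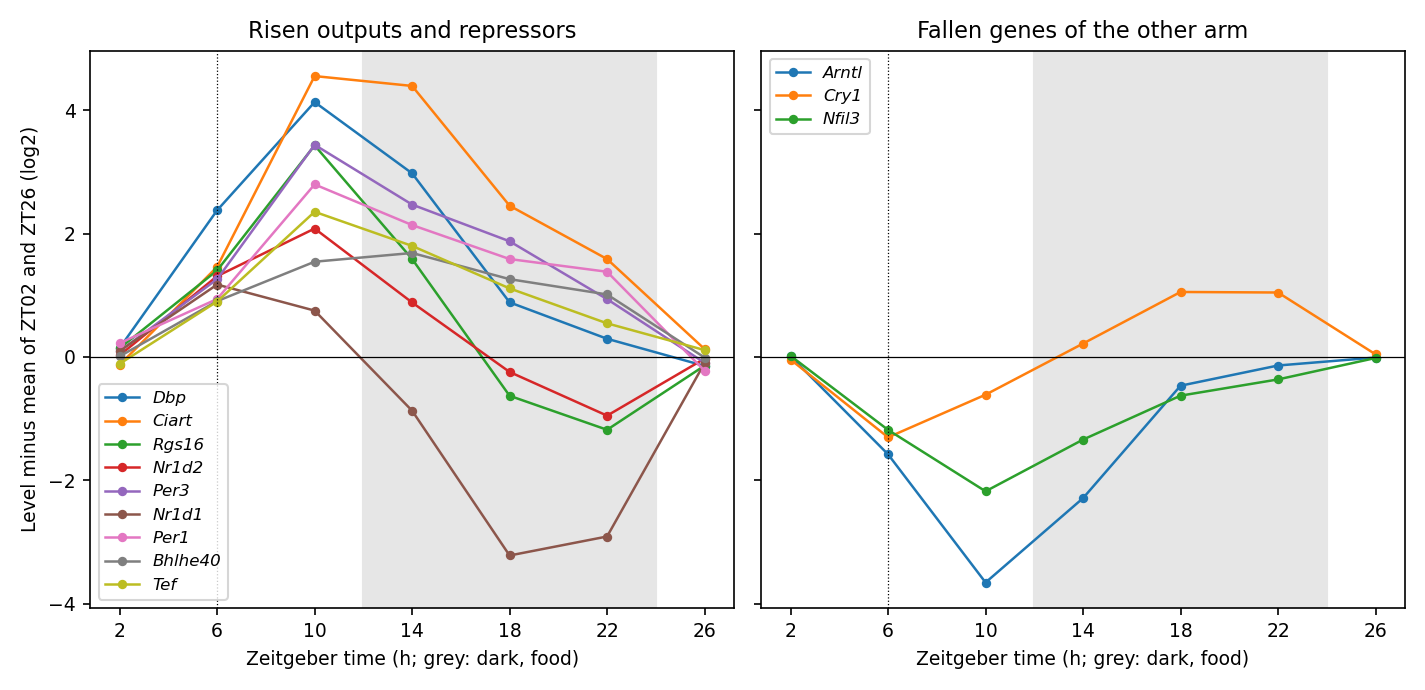
Level on each of the 7 arrays minus the mean of ZT02 and ZT26, in log2, against Zeitgeber time. Shown are the 9 risen genes of the list of BMAL1 and CLOCK targets and the 3 fallen genes of the other clock list. The dotted line marks ZT06: Nr1d1 and Cry1 are at their extreme there, whereas Dbp, Ciart, Arntl and Nfil3 move further to ZT10.

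In the list of the positive arm and of genes under REV-ERB repression, 3 of 8 measured genes fell and 0 rose, with a median step of -0.27 log2. Of all tested genes 0.602% fell. This list was also written with earlier results known, and Cry1, a repressor that BMAL1 and CLOCK activate, was placed in it. Arntl was at 497 units at ZT02, 490.4 at ZT26 and 165 at ZT06, a 2.99-fold fall, and went down to 39.2 at ZT10. Its base arrays differed by only -0.02 log2. Nfil3, a repressor of D-box genes, fell from 657 and 641 units to 286 and to 143 at ZT10. Cry1, the late repressor of the loop, fell from 226 and 240.0 units to 94.4, its lowest value of the 7, and was already at 152 at ZT10. At ZT06 all 3 were below both base arrays by more than 2-fold.

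Clock itself, the partner of BMAL1, was at 1129.7, 1046 and 999 units and did not pass, and its low came at ZT10 with 456. Elovl3, a fatty acid elongase, had 7967, 7844 and 6148 units at ZT02, ZT26 and ZT06, a step of -0.36 log2 under the limit. The steps of Rora, E2f8 and Gys2, which encode a nuclear receptor, a cell cycle repressor and liver glycogen synthase, were -0.17, 0.07 and 0.35 log2. Arntl2 was under the expression minimum and had nearly the same value on every array.

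Promoters of these genes are shown because E-boxes and REV-ERB elements are the sites through which the loop is known to work. RefSeq promoter windows (build GRCm38.p6, 250 bases before to 50 after a start) were matched by symbol for 8 of the 9 risen and all 3 fallen clock genes. The stretches below run 5′ to 3′ on the gene's strand, and capitals mark an E-box (CACGTG) or the core of a REV-ERB and ROR element (TAGGTCA, or TGACCTA on the other strand).
Ciart (chr3:95882240-95882371, - strand): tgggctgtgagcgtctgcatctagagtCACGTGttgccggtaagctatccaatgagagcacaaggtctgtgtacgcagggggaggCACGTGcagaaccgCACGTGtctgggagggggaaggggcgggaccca
Per1 (chr11:69098756-69098815, + strand): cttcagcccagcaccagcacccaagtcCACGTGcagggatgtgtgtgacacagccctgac
Tef (chr15:81802519-81802578, + strand): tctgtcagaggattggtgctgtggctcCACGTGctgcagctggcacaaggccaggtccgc
Tef (chr15:81811249-81811308, + strand): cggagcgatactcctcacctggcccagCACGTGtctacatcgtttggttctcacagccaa
Cry1 (chr10:85185082-85185141, - strand): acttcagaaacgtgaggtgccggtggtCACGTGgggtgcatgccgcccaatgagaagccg
Arntl (chr7:113207514-113207560, + strand): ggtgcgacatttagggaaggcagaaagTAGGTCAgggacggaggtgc
Nfil3 (chr13:52981018-52981078, - strand): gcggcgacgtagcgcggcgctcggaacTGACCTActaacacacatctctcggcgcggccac
The Ciart window held 3 E-boxes, at 116, 58 and 44 bases before the start, the first Per1 window held an E-box at 166, and both Tef starts held an E-box, at 127 and 138. Of the fallen genes, Cry1 held an E-box, whereas Arntl and Nfil3 held the REV-ERB core, 30 bases after one start of Arntl and 12 bases before that of Nfil3. The windows of Dbp, Nr1d1, Nr1d2, Per3 and Rgs16 held neither, which says only that these letters are not within these 300 bases.

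Over all genes past the rule the same letters were searched on both strands in 37 risen and 49 fallen genes with a window, beside 8795 tested genes. The E-box was in 6 risen genes (16.2%) and 5 fallen genes (10.2%), where 12.0% of tested genes had it. The REV-ERB core was in 0 risen and 4 fallen genes (8.16%, Arntl, Cxcl9, Nfil3 and Slc45a3), where 2.62% of tested genes had it. A D-box (TTANGTAA) was in 1 risen and 1 fallen gene (1.88% of tested genes), a cAMP response element (TGACGTCA) in 1 and 4 (3.41%), a heat shock element (GAANNTTC) in 2 and 6 (7.02%) and a sterol element (TCACNCCAC) in 1 and 1 (1.43%). The CCAAT box, common in promoters, was in 21 risen genes (56.8%) and 34 fallen genes (69.4%), where 42.0% of tested genes had it. These counts are a description of the windows, and in all promoter windows the E-box was in 7.15% and the REV-ERB core in 2.61%.

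Further genes named by the rule rose outside the clock lists. Mfsd2a, a transporter of lysophosphatidylcholine with docosahexaenoic acid, rose from 185 and 199 units to 405 and went on to 2683 at ZT10 and 3148 at ZT14. Lipg, endothelial lipase, rose from 132 and 157 units to 310.3. Gpcpd1, which splits glycerophosphocholine, rose from 1379 and 1144 units to 2569.6. Angptl4, a secreted inhibitor of lipoprotein lipase and a PPAR-alpha target, rose from 620.4 and 685 units to 1176. ZT06 lay above both base arrays in each of these genes, which the rule requires of every risen probe set. The difference between the days was 0.10 log2 for Mfsd2a and 0.14 for Angptl4, but 0.25 for Lipg and -0.27 for Gpcpd1.

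Cabyr, a calcium-binding protein best known from sperm, made the second largest rise, 1.83 log2, but with a large difference between the days, -0.96 log2. It was at 193 units at ZT02, 99 at ZT26, 491 at ZT06 and 653 at ZT10, and between 139 and 197 from ZT14 to ZT22. Clec2h, a C-type lectin, rose from 368 and 439 units to 790.2. Inhbe, which encodes the activin beta E subunit secreted by hepatocytes, rose from 456 and 643 units to 1044, and was higher still at ZT14, at 1616.

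Saa2, an acute phase protein, rose by 1.30 log2 with 842 units at ZT02, 388 at ZT26 and 1406 at ZT06, its highest value, before 172 at ZT10. The difference between the days was -1.12 log2, nearly as large as the step. Its near-identical neighbour Saa1, with 145, 49.9 and 235 units, had a step of 1.46 log2 and a difference between days of -1.54, and did not pass. Probes of these paralogs can share transcripts. The other 20 acute phase genes did not pass, and the median step of all 22 was 0.02 log2.

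**Figure D3:**
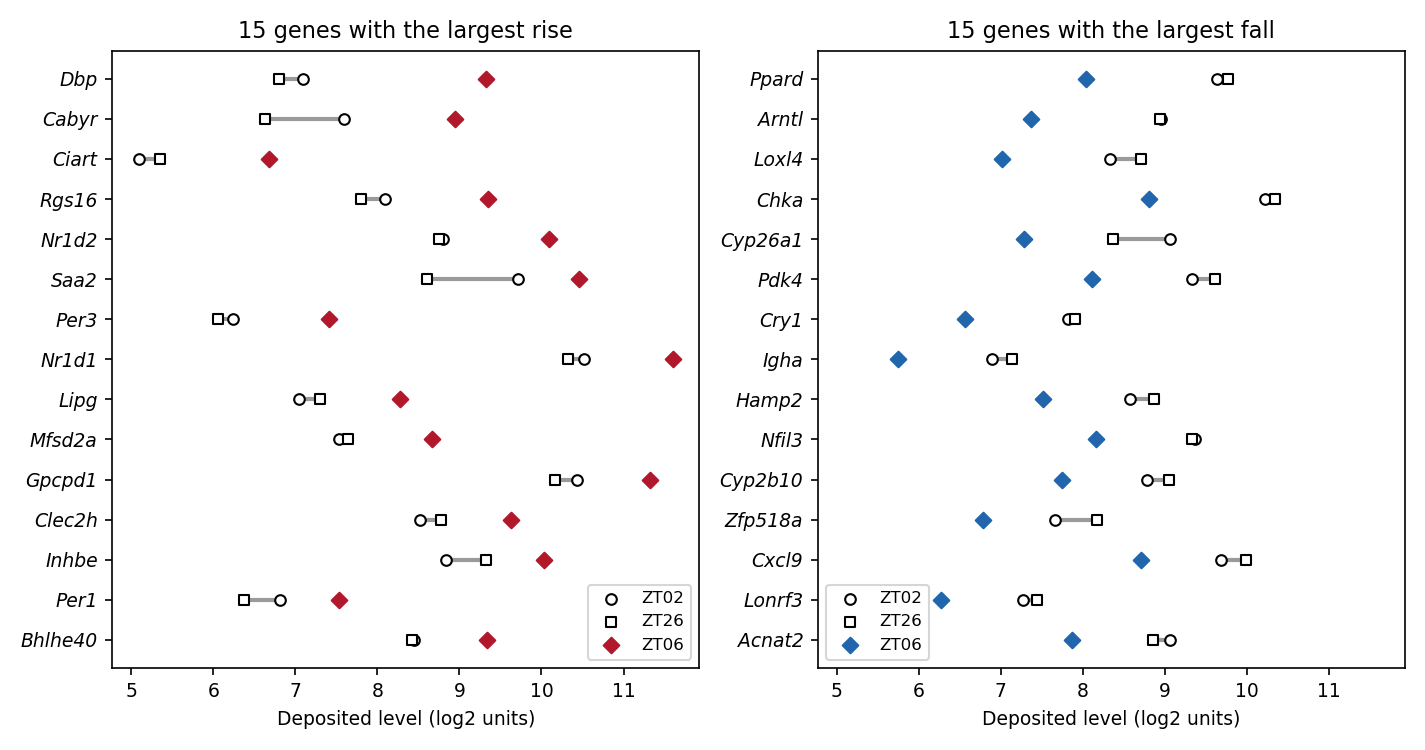
Deposited log2 level at ZT02 (circle), ZT26 (square) and ZT06 (diamond) of the 15 genes with the largest rise and the 15 with the largest fall, 1 probe set a gene. Grey bars join the 2 days, which lie close together for Arntl, Nr1d2 and Nfil3 and far apart for Saa2, Cabyr and Cyp26a1.

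Among the fallen genes, with 1 probe set a gene, the largest step was that of Ppard, which encodes the nuclear receptor PPAR-delta. It was at 795 units at ZT02, 868 at ZT26 and 262 at ZT06, a 3.17-fold fall, the lowest value of the 7 arrays, and was at 970.2 at ZT22. Chka, choline kinase alpha and the first enzyme of phosphatidylcholine synthesis from choline, fell from 1192 and 1295 units to 446 and to 151 at ZT10. Loxl4, a lysyl oxidase of the extracellular matrix, fell from 321 and 419 units to 129.6, and its second probe set fell by 1.67 log2. Acnat2, an acyltransferase that joins fatty acids to amino acids, fell from 533 and 461 units to 234.

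The lists of fasting metabolism had few members past the rule. Of 34 measured PPAR-alpha targets and genes of fatty acid oxidation, Angptl4 rose and Pdk4 fell, and the median step was 0.06 log2. Pdk4, a kinase that holds back pyruvate dehydrogenase and is induced by long fasting, was at 642 units at ZT02, 778 at ZT26 and 276 at ZT06, and at 114 at ZT10. Cyp4a14, another PPAR-alpha target, was at 1650.0, 4481 and 1327 units and did not pass because the days differed by 1.44 log2. Cpt1a and Ppara, with steps of 0.23 and 0.46 log2, were under the limit.

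Of 15 gluconeogenic genes 0 rose and 0 fell, with a median step near 0. Pck1, which encodes the cytosolic enzyme that commits oxaloacetate to glucose, was at 6758, 4463 and 7420.0 units, a step of 0.43 log2 beside a difference of -0.60 between the days. The steps of Slc37a4 and Got1, a glucose 6-phosphate transporter and an aminotransferase, were 0.21 and -0.20 log2. Of 3 measured genes of ketone body synthesis and transport 0 passed, and the largest step was that of Bdh1 at 0.23 log2.

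Of 15 genes of insulin signalling and FoxO targets only Igfbp1 passed. Igfbp1, a secreted protein that binds insulin-like growth factors and is held down by insulin, fell from 1922 and 1637 units to 865 and to 117 at ZT14. In the list of growth hormone response, where Igfbp1 also stands, Onecut1, a hepatocyte transcription factor, rose from 789 and 822 units to 1237. In glycolysis and glycogen 1 of 17 rose, where 0.419% of all tested genes did. This was Pfkfb3, which makes the activator of phosphofructokinase, with 97.6, 88.5 and 142 units. Against ZT02 alone its step was 0.54 log2, under the limit. In autophagy 1 of 21 rose, beside the same share of all tested genes. This was Ulk1, the kinase that starts autophagy, with 627, 634 and 1083 units.

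Most genes of cholesterol synthesis were slightly lower at ZT06. Of 20 measured members 18 had a step below 0, where 45.2% of all tested genes did, and the median step was -0.28 log2, but only Mvd fell past the limit. Mvd, mevalonate diphosphate decarboxylase, was at 394 units at ZT02, 481 at ZT26 and 283 at ZT06, and against ZT02 alone its step was -0.48 log2, under the limit. Of the 22 genes of fatty acid synthesis 16 had a step below 0, and Fasn, fatty acid synthase, and Srebf1, its activator, had steps of -0.46 and -0.43 log2 whereas Me1, malic enzyme, had 0.49. In bile acid synthesis and transport 1 of 15 rose, Cyp7b1, an oxysterol hydroxylase, at 4657, 3491 and 6188 units, and against ZT02 alone its step was 0.41 log2, under the limit.

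Of 18 heat shock chaperones 2 fell, where 0.602% of all tested genes did, and 0 rose, with a median step of -0.11 log2. These were Hsph1, from 543 and 468 units to 309.9, and Chordc1 from 546 on both base arrays to 362. Chordc1 is 1 of the 679 probe sets with the same value to the last digit on both, so only the fold limit acted on it. Hsph1 is an exchange factor of HSP70 and Chordc1 a partner of HSP90. Both were highest at ZT14, at 1190.0 and 954 units. Of 28 genes of the endoplasmic reticulum and unfolded protein response 1 fell, Syvn1, a ubiquitin ligase that removes misfolded proteins, with 1255, 1225 and 744 units. The cold-induced Cirbp and Rbm3 had steps of 0.09 and 0.31 log2.

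Of 22 immediate early genes and SRF targets 1 rose and 3 fell, where 0.419% and 0.602% of all tested genes did. Egr1, a transcription factor induced by growth signals, fell from 637 and 678 units to 325, and on to 75.2 at ZT14. Btg2, an antiproliferative gene, fell from 612 and 434 units to 278, and Zfp36l1, an RNA decay factor, fell from 1705 and 1649 to 984. Klf10 rose from 259 and 257 units to 482. All 8 measured tubulins had steps below 0, where 45.2% of all tested genes did, with a median of -0.20 log2 beside a median difference between the days of 0.19. Of these only Tubb2a passed, from 953 and 1156 units to 507 and to 147 at ZT10. Of 16 glucocorticoid-induced genes 2 rose and 1 fell, beside the same 0.419% and 0.602% of all tested genes. Per1 and Pdk4 are given above, and Mt2, a metallothionein, was at 1732, 1195 and 2346 units, with a step against ZT02 alone of 0.44 log2, under the limit.

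Of 19 cytochrome P450 genes and their regulators 0 rose and 2 fell, where 0.419% and 0.602% of all tested genes did. Cyp26a1, which breaks down retinoic acid, was at 534 units at ZT02, 329.7 at ZT26 and 155 at ZT06, with a difference between the days of -0.70 log2 beside a step of -1.44. Cyp2b10, a target of the xenobiotic receptor CAR, fell from 439.6 and 529 units to 214. Its relative Cyp2b9 had the largest negative step of any tested gene, -2.65 log2, but was at 169 units at ZT02 and 1132 at ZT26, and did not pass. Probes of such similar P450 genes can share transcripts. Among 20 genes of heme and iron 1 fell, Hamp2, a hepcidin gene, from 381 and 465 units to 183, its lowest value, with 428 at ZT10.

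Among the 66 fallen genes were 4 that serve antigen presentation by major histocompatibility complex class II. No list of class II genes was set, so no share of measured class II genes stands beside this count. Cd74, the invariant chain that guides class II molecules, was at 903 units at ZT02, 1057 at ZT26 and 489 at ZT06. The class II beta chain H2-Ab1 fell from 839 and 1062 units to 453, and its alpha chain H2-Aa from 1108 and 1135 to 572. A second beta chain, H2-Eb1, fell from 676 and 753 units to 421. All 4 genes were below both base arrays at ZT06, which the rule requires, and also at ZT10 and ZT14. At ZT22 all 4 were above the mean of the base arrays. Ccl5, a T cell chemokine, fell from 271 and 322 units to 156. The 3 chains and Ccl5 lie outside the rule for named genes and were chosen after their values were seen, as were Saa1, Cyp4a14, Cpt1a, Ppara, Cyp2b9, Krt19 and Krt7.

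Cxcl9, a chemokine induced by interferon gamma, fell from 825 and 1016 units to 417, and Igha, the immunoglobulin A heavy chain of plasma cells, from 119 and 140.4 to 53.6, near the background, with a step of -1.27 log2 that became -3.02 with 43 units subtracted. Of the cell type markers, 1 lymphocyte marker, Cd74 itself, and 0 of the Kupffer cell markers passed the rule. The 11 lymphocyte markers on the array had a summed step of -0.69 log2. Without Cd74 the other 10 had -0.38, at 806 units at ZT02, 814 at ZT26 and 623 at ZT06. The close sums at ZT02 and ZT26 hide opposite differences between the days, from -0.61 log2 for Ighm to 0.47 for Cd79a. Ighm, at 165, 108 and 88.7 units, did not pass the rule. Of these markers 10 of 11 had a step below 0, where 45.2% of all tested genes did, and 3, all of them B cell or cytotoxic genes, had means at or under the background of 43 units. All 12 Kupffer cell markers had steps below 0, from -0.40 to -0.01, and their summed level was 8367 units at ZT02, 9390.0 at ZT26 and 7631 at ZT06, a summed step of -0.22 log2 beside a difference of 0.17 between the days.

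The summed steps of endothelial and stellate cell markers were -0.12 and -0.18 log2, those of hepatocytes -0.03, and those of erythroid, pancreatic acinar, adipocyte and muscle cells between 0.05 and 0.13. The 8 neutrophil markers all had means over the 7 arrays under 85 units, and they had a summed step of -0.46 log2 with a larger difference between the days, -0.82. Of the cholangiocyte markers only Sox9 was above the minimum and fell, from 434 and 449 units to 280.5, whereas Krt19 and Krt7 had steps of 0.07 and -0.09. The part of these cells in the fall of the class II genes was not tested, and in bulk liver fewer cells of a type and less RNA per cell cannot be told apart.

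**Figure D4:**
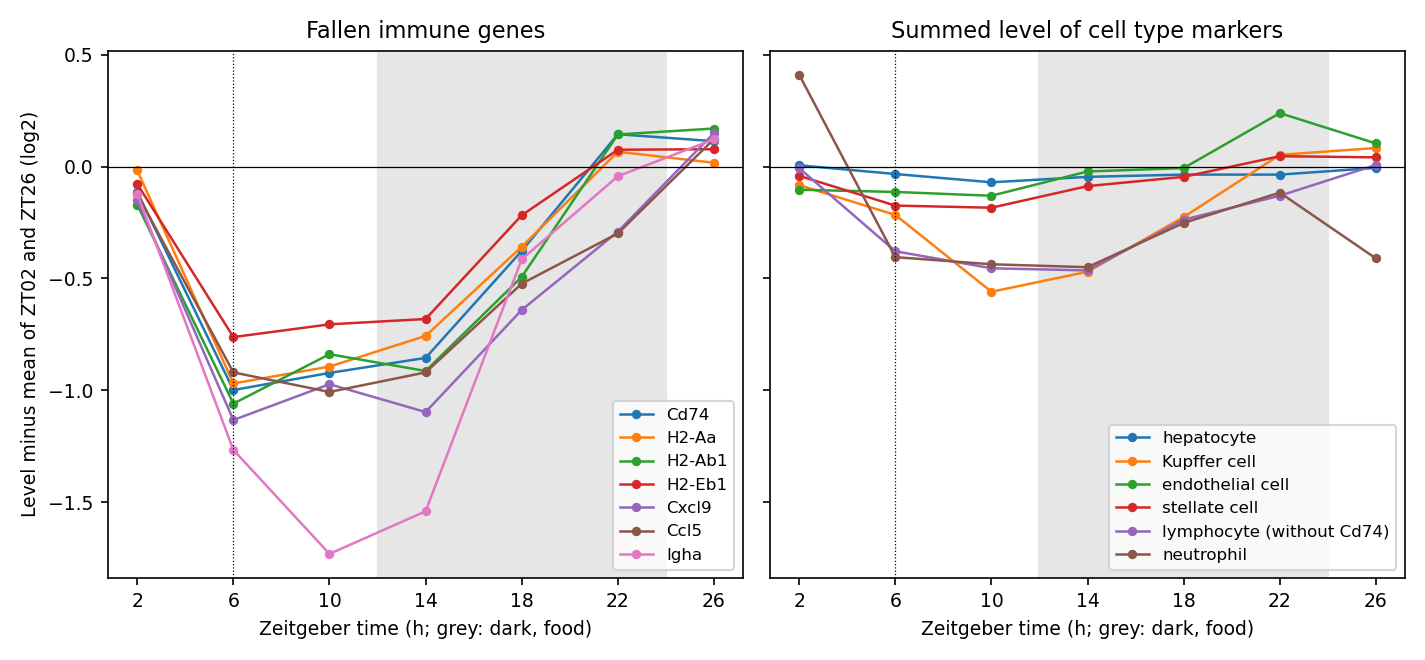
Left, level of 7 fallen immune genes on each array minus the mean of ZT02 and ZT26, in log2. Right, summed natural-scale level of the markers of 6 cell types, the lymphocyte markers without Cd74, in log2, minus the mean of its values at ZT02 and ZT26. The lymphocyte sum is 623 units at ZT06 against 806 and 814 at ZT02 and ZT26, where opposite differences of single markers between the days cancel. The hepatocyte sum stays close to 0.

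Further large falls belong to no list. Zfp518a, a zinc finger protein, fell from 203 and 288 units to 109.6, and Lonrf3, a RING finger protein, from 154 and 174 to 76.9, its lowest value, with a step of -1.09 log2 that became -1.84 with the background of 43 units subtracted. Of 26 solute carriers 2 fell, where 0.602% of all tested genes did. These were the phosphate transporter Slc34a2, from 143 and 207 units to 86.5, and Slc45a3, from 561 and 595 to 374. The 23 risen and 38 fallen genes not named by the rule had steps of 0.587 to 0.841 and 0.591 to 1.06 log2 in size.

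The genes of this paragraph are some of these and were chosen after their values were seen. Txnip, an inhibitor of glucose uptake, rose from 1009 and 1059 units to 1576, and its relative Arrdc3 from 1535 and 1669 to 2756, its highest value. Flcn, folliculin, which acts on the amino acid branch of mTORC1, rose from 247 on both base arrays to 377. Its base values were also the same to the last digit, so only the fold limit acted on it. Upp2, a liver uridine phosphorylase, rose from 1955 and 1513 units to 3080.1, and Noct, a clock-controlled phosphatase, from 162 and 152 to 238. The mitochondrial carriers Slc25a47 and Slc25a30 rose from 2421 and 2256 units to 3966 and from 715 and 788 to 1178. Rfxank, a subunit of the factor that drives class II genes, fell from 577 and 639 units to 397, and was lowest at ZT10 with 257. Its part in the fall of the class II genes was not tested.

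Most probe sets past the rule were further from the base at ZT10 than at ZT06, but fewer of them by at least 1.5-fold. Of the 47 risen probe sets 27 were highest at ZT10 and 13 at ZT06, and 33 were higher at ZT10 than at ZT06, 17 of them by at least 1.5-fold. Of the 68 fallen ones 30 were lowest at ZT10 and 26 at ZT06, and 38 were lower at ZT10 than at ZT06, 18 of them by at least 1.5-fold. ZT06 was the highest array in 13.4% and the lowest in 11.3% of all tested probe sets, but the rule chose on ZT06, so the shares among members are a description. The risen probe sets were at a median of 1.05 log2 above the base at ZT10, 0.45 at ZT14 and 0.05 at ZT18 and ZT22. The fallen ones were at -0.96, -0.77, -0.12 and -0.13 at these times, so that the medians of both groups were back near the base by the middle of the dark.

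A smaller group turned back at once. From ZT06 to ZT10, 6 risen and 8 fallen probe sets went at least 1.5-fold back in the direction of the base. Many of them went past it: at ZT10 Saa2 was at -1.74 log2 from the base, Fabp5 at -0.91 and Aacs at 0.63. Among the risen genes Saa2, Fabp5, Adgrf1, Arl2bp and Cyp7b1 did so, and of these Fabp5, a fatty acid binding protein, was at 321, 281, 527 and 160.0 units at ZT02, ZT26, ZT06 and ZT10, and Adgrf1, an adhesion receptor, at 373, 371, 645 and 378. Both Fabp5 probe sets are counted, with steps of 0.81 and 0.79 log2. Among the fallen genes Hamp2, Lonrf3, Cry1, Aacs, Slc16a5, Rhobtb1, Tcim and 4930578G10Rik did so, and Aacs, acetoacetyl-CoA synthetase, was at 547, 530.4, 333 and 833 units at ZT02, ZT26, ZT06 and ZT10. These genes outside the rule were likewise chosen after their values were seen.

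Of the 32 gene lists, 13 had 0 members past the rule, with 280 measured memberships. Among them, amino acid breakdown and the urea cycle had a median step of -0.03 log2 over 27 genes, and its largest step was that of Asns, asparagine synthetase, at 599, 285 and 281 units, whose days differed by more than the step. Steps of cytosolic ribosomal proteins ran from -0.24 to 0.13 log2 over 29 genes, those of oxidative phosphorylation subunits from -0.11 to 0.17 over 36 and those of proteasome subunits from -0.07 to 0.33 over 31. Ribosome biogenesis ran from -0.38 to 0.29, with Nolc1, a nucleolar protein, lowest. NRF2 antioxidant genes ran from -0.18 to 0.08, apolipoproteins and lipoprotein assembly from -0.45 to 0.14, and NAD synthesis and sirtuins, with the clock target Nampt at -0.12, from -0.16 to 0.11. Histone demethylases, deacetylases and methyltransferases ran from -0.17 to 0.32, with Kdm5a highest. In the cell cycle list 1 of 14 passed, Btg2. Only 3 lists had a median beyond 0.25 log2 in size: clock outputs, the positive arm and cholesterol synthesis.

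**Figure D5:**
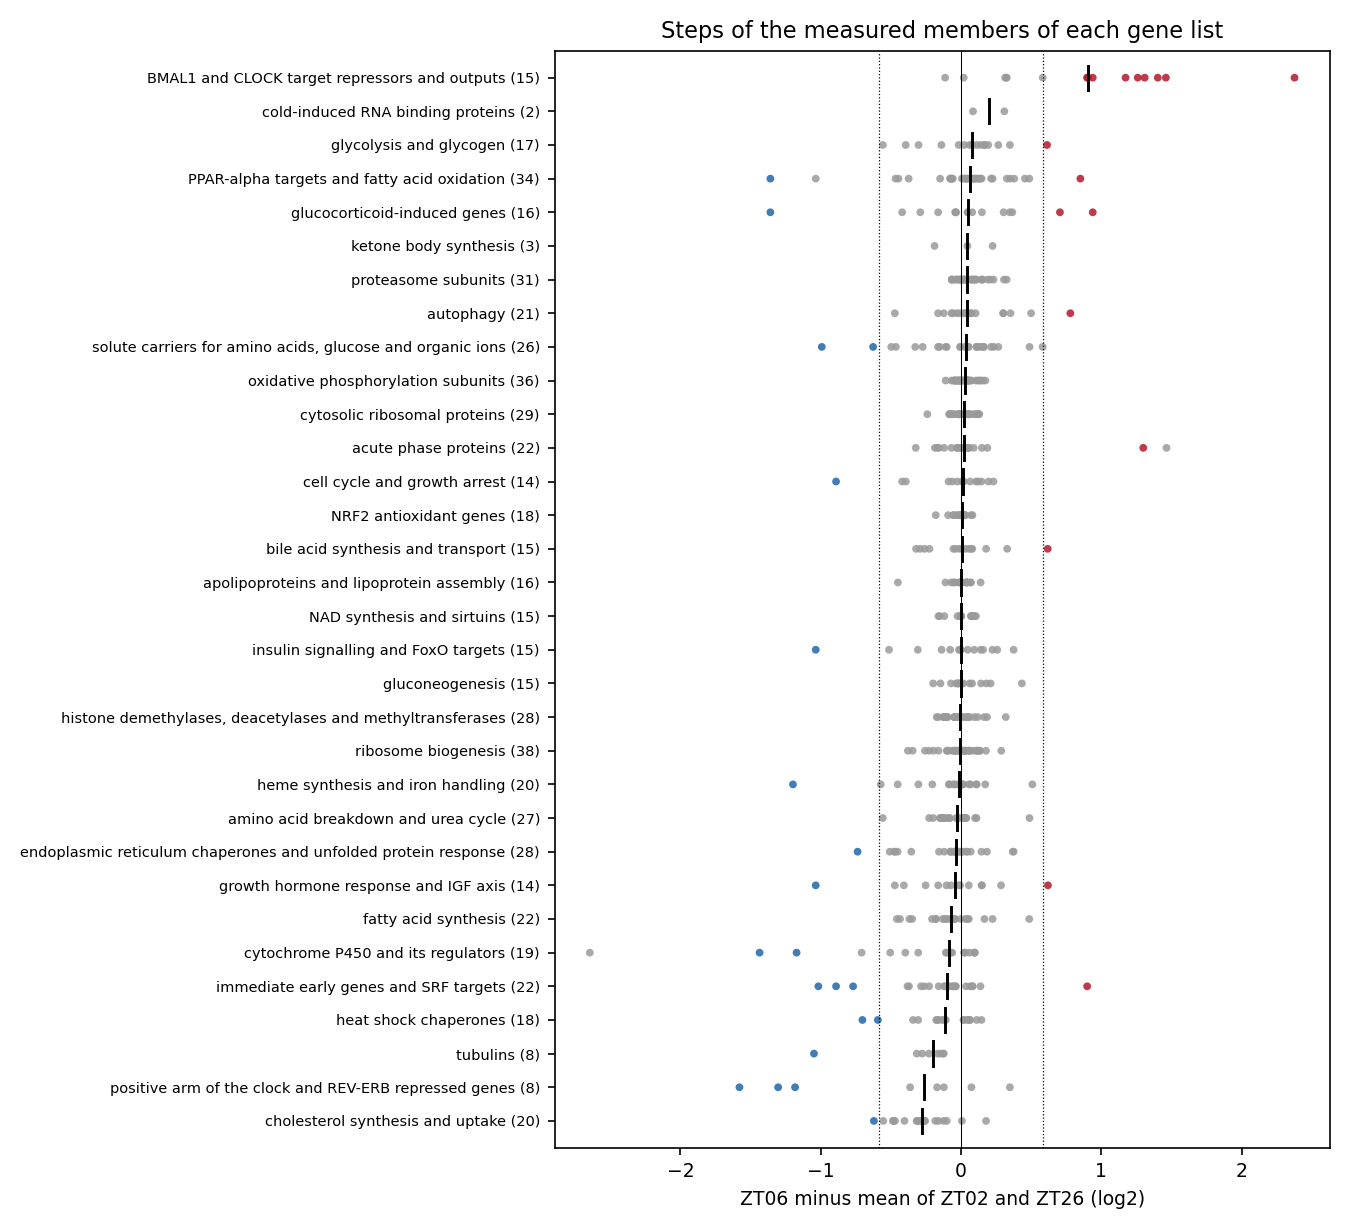
Step to ZT06 in log2 of each measured member of the 32 gene lists (number of members in brackets), with risen members red, fallen members blue and the others grey. Black ticks mark list medians and dotted lines mark 1.5-fold, and most lists are centred near 0.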

How the data were processed

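Values were the log2 signals that the authors deposited for 7 arrays, for which the submitters' processing notes name RMA and Affymetrix Expression Console (1.1.2637.26569). Background, array normalization and probe summary were thus handled before deposit. RMA is known to understate folds, most of all for dim probe sets. The 7 array medians lay between 6.37 and 6.40, and pools, not mice, limit the precision. Other sequencing data of the study were not analysed here.

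Probe sets were named through the platform annotation, with 12052 of the 12076 tested ones matched to a RefSeq gene (GRCm38.p6). The step was ZT06 minus the mean of ZT02 and ZT26, and the rule needed 1.5-fold and more than the ZT26 to ZT02 difference. Limma 3.58.1 in R 4.3.3 (lmFit, eBayes, Benjamini-Hochberg over 12076) tested the same contrast. Tables were joined with Python 3.11.15, pandas 2.3.3 and numpy 2.4.6 and drawn with matplotlib 3.10.9.

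Named genes were the 15 largest rises and 15 largest falls (1 probe set a gene, that with the highest mean), up to 6 members past the rule of each of 32 lists or up to 3 with the largest step where a list had none, every member of both clock lists, and the marker with the largest step of each of 11 cell types. The step, the lists and the markers were chosen with earlier results of these data known. Alternatives changed the fold, the margin over the difference between days, the expression minimum, the background, the symbol filter, the centring, the baseline and the base array.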

Additional observations from a re-analysis of the deposited data

How the results depend on the processing

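At 2-fold 11 probe sets rose and 20 fell, and at the looser fold limit 264 and 380. With 43 units of background subtracted on the natural scale (floor at 10 units) 94 rose and 163 fell, and with probe sets of several symbols or none included 110 and 231, in both cases with all 47 and 68 among them. The single base arrays were compared by the fold limit alone, without the margin over the difference between days. Against them 59 to 60 probe sets were higher and 75 to 137 lower, with 137 against ZT26 alone. The 7 other ways of counting (margin of 2 times or 0.5 times the difference between days, minimum of 43 or 170 units, 1 probe set a gene, centred arrays, straight line between ZT02 and ZT26) stayed within 1.5 times of the count. In limma, centring moved the calls from 0 and 0 to 49 higher and 67 lower. Its other settings, the trend, the robust prior, the other minima, all probe sets and the prior without ties, gave 0 and 0. All 51 named genes past the rule kept their direction under the 5 alternatives run on them. This could hardly come out otherwise and is no support. The rule already puts ZT06 outside both base values, and centring moved no step by more than 0.00162 log2. The sizes of the 51 steps were less stable. With the background subtracted 29 of them moved by more than 1 SD of the base arrays, 4 by over 1.5-fold. These 4 were Igha from -1.27 to -3.02 log2, Ciart from 1.46 to 2.58, Per3 from 1.26 to 2.20 and Lonrf3 from -1.09 to -1.84. Against ZT02 alone Cyp7b1, Mt2, Mvd, Pfkfb3 and Slc45a3 were under 1.5-fold, and the first 4 also against the straight line. No paired analysis was possible because ZT06 has 1 array, so the groups share 1 replicate number at most.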

Other observations

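A set of 12 probe sets stepped by at least 1.5-fold but differed as much or more between the days. Besides Cyp2b9, Cyp4a14 and Saa1 these were Cyp17a1, a steroid hydroxylase (733 units at ZT02, 386 at ZT26 and 325 at ZT06), Mmd2 (705, 345 and 267), the interferon-induced Cxcl10 (138, 217 and 112) and Samd9l (179, 270 and 146), the immunoglobulin M chain Ighm (165, 108 and 88.7), and small nucleolar RNAs. Snora73a was at 1915 units at ZT02, 887 at ZT26 and 2039 at ZT06 and Snora73b at 2387, 1146 and 2678, whereas both Snord118 probe sets were at 888, 278 and 263. For these the pools at the same clock time were as far apart as the step.

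Above 85 units, 833 probe sets carried several symbols, of which 0 rose and 16 fell, and 4774 carried none in the annotation used here, of which 63 rose and 147 fell. They are unnamed here and enter no list.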
